A study of Mus musculus with 2 samples.

Results

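The genes described here are 32 genes of T cell identity and signalling, out of 24346 genes listed in RNA-seq of mouse whole omentum. They were chosen by symbol as T lineage genes. No cut on their values was used, but earlier results of these data were known when they were chosen. All 32 were listed in both libraries. They were taken in 6 groups by role: the T cell receptor complex (4 genes), the CD4 and CD8 co-receptors (3), proximal signalling (7), adhesion and costimulation (7), naive and lineage genes (5) and regulatory and activation genes (6). The WT library was made from wild-type mice and the other from Postn-DTR mice, each 5 days after diphtheria toxin (DT), so the controls had received DT too. Per the study's methods, Postn-DTR mice carry a mutated diphtheria toxin receptor inserted at 1 allele of Postn on a C57BL/6 background, and DT was given intraperitoneally. This model removes cells that use the Postn promoter, chiefly the Aldh1a2+ fibroblastic reticular cells (FRCs) of the omentum, and Postn is also used by mesenchymal cells of other tissues. Age and sex of the mice and the number of omenta per library were not given in the sources used here. The question of the comparison was which transcripts depend on these stromal cells in the tissue that lymphocytes enter.

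The omentum is a fold of abdominal fat with milky spots, small clusters of lymphocytes and macrophages around a stromal network. T cells enter these clusters from blood and leave again, much as they pass through lymph nodes. A T cell recognises antigen through a receptor that signals by way of the CD3 chains and the zeta chain Cd247. The kinase Lck, held at the co-receptors CD4 or CD8, phosphorylates these chains, Zap70 docks on them, and Zap70 phosphorylates the scaffold Lat. Costimulatory receptors such as CD28 and ICOS add to this signal, whereas CTLA-4, which competes with CD28 for its ligands, restrains it.

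The values are FPKM, fragments scaled to transcript length and library size, so that levels can be set side by side between genes per unit of length. The change of a gene is its log2(FPKM + 1) in Postn-DTR less that in WT, and genes were counted as lower or higher from a 2-fold difference on that scale. Fold and ratio refer to the FPKM without the added 1. With 1 library per genotype there was no spread between replicates and no test, so no difference could be checked in replicates. Each ratio is instead given with a 95% exact binomial (Clopper-Pearson) interval from the estimated reads of the gene, which covers counting error only and not the variation between mice. In bulk tissue, fewer cells of a type and less RNA per cell cannot be told apart.

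The sum of all FPKM was 542190 in WT against 671882 in Postn-DTR, at an estimated depth of 23100000 fragments in WT and 1.03 times that in Postn-DTR. Postn, the locus that carries the receptor, had an FPKM of 58.3 in WT against 16.2 in Postn-DTR, and Aldh1a2 85.5 and 63.3. Per the study, the receptor sits in the first coding exon of Postn. The part of this insertion in the Postn value was not tested. Ptprc, the leukocyte common antigen CD45, had 55.6 and 35.4. Pancreatic acinar genes stood apart between the libraries: 18 of 18 compared were at least 2-fold lower in Postn-DTR, and their summed FPKM was 12154 in WT against 20.4 in Postn-DTR. Ctrb1 had 2490 in WT against 1.51 in Postn-DTR and Cela2a 1628 against 0.351, while Amy2a5 was at 0 in both libraries and Try4 in Postn-DTR. These genes took 2.24% of the WT sum. The members were also compared without them at equal FPKM totals, and that value is given where it turns a direction. Most of this rescaling comes from the unequal sums of all FPKM, which differed by far more than the acinar genes took. The part of pancreatic tissue in the T cell values was not tested. With 1 library per genotype it cannot be told apart from the genotype.

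The T cell transcripts were lower in Postn-DTR omentum with few exceptions. Of the 32 genes, 29 had a lower FPKM in Postn-DTR and 3, Ctla4, Tnfrsf4 and S1pr1, a higher one. Among the 27 members whose mean FPKM reached 1, 9 were at least 2-fold lower, whereas 3.12% of all 13127 genes at this mean were (410 genes). The 9 were Cd3e, Cd247, Cd4, Cd8a, Lck, Zap70, Cd5, Cd6 and Cd27. Restricted to the 11136 genes with a mean FPKM from 1 to that of Thy1, the highest member at 45.8, the share of all genes was 3.07%. Ctla4 alone was at least 2-fold higher, beside 3.88% of all genes. A change below 0 was found for 24 of the 27 genes and for 48.1% of all genes, and the median change was -0.77 against 0.02 over all genes, whose 5th and 95th percentiles were -0.79 and 0.87. Without the added 1, 13 of the 27 had at most 0.5 times the WT FPKM, beside 5.2% of all genes. Cd8a and Foxp3 passed this mean with an FPKM under 1 in Postn-DTR. The 5 genes under it, Trat1, Ubash3a, Themis, Cd40lg and Bcl11b, were all lower in Postn-DTR, and over all 32 genes the median change was -0.73.

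Counting error was small beside most of these differences. The members rested on 26 to 2433 estimated reads in WT and 8 to 2932 in Postn-DTR. The 95% interval of the ratio lay below 1 for 29 genes, above 1 for Ctla4 and S1pr1, and held 1 for Tnfrsf4.

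**Figure D1:**
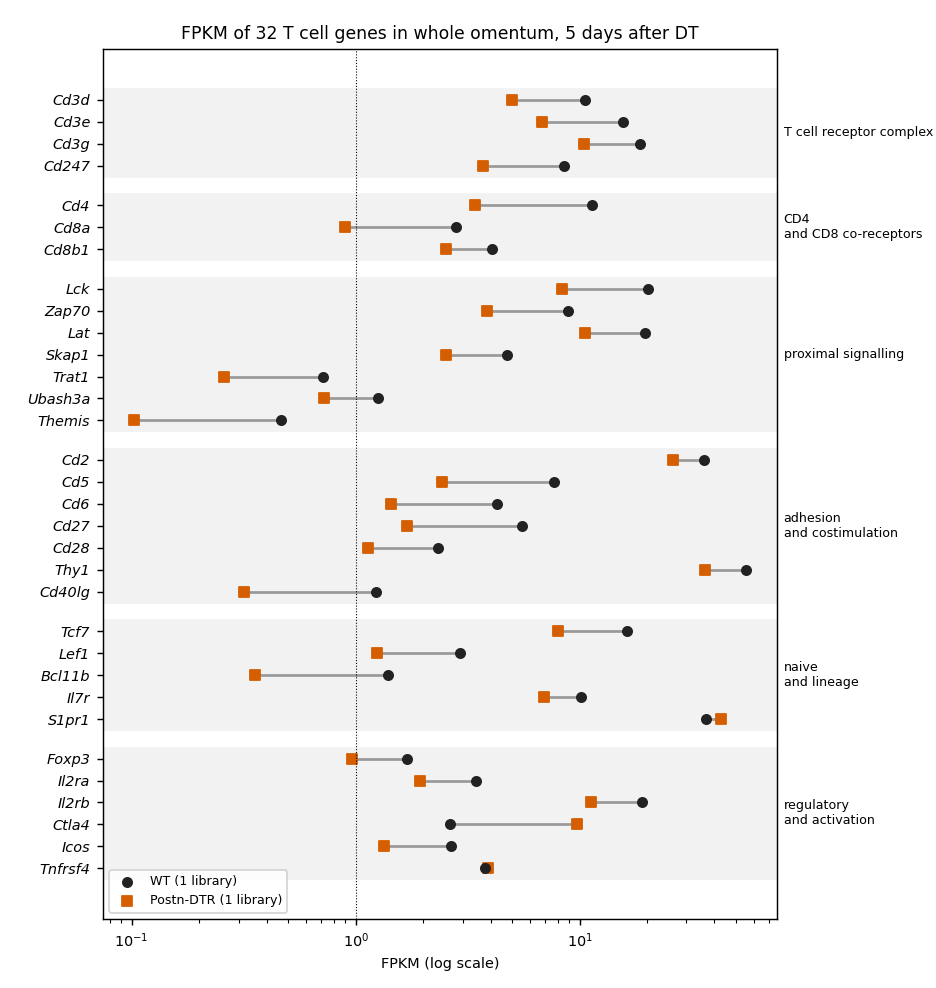
FPKM of the 32 T cell genes on a log axis, by group, with a circle for the WT library and a square for the Postn-DTR library, 1 library each. The dotted line marks an FPKM of 1. The square lies left of the circle for 29 genes, and right of it for S1pr1, Ctla4 and Tnfrsf4.

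The 4 genes of the T cell receptor complex were all lower in Postn-DTR, their median change being -0.98. Cd3d, Cd3e and Cd3g encode the invariant delta, epsilon and gamma chains, and Cd247 the zeta chain, which carries most of the signalling motifs. Cd3e (ENSMUSG00000032093, chromosome 9, 44998740 to 45009627, minus strand, GRCm38) was at 15.6 in WT against 6.82 in Postn-DTR, a ratio of 0.438 (0.370 to 0.517). Cd3d had 10.6 and 5.00, a ratio of 0.473 (0.392 to 0.570). Cd3g was highest in both libraries and had the smallest difference, at 18.7 and 10.5, a ratio of 0.563 (0.474 to 0.671). Cd247 (chromosome 1, 165788681 to 165877277, plus strand) had 8.53 and 3.72, a ratio of 0.436 (0.341 to 0.554). The 4 intervals overlapped, and differences between the chains were not tested. The ratio of Cd247 to Cd3e was 0.548 in WT against 0.545 in Postn-DTR. Exons of Cd247 share 3007 bases with Pou2f1 on the opposite strand, listed at 1.94 and 2.33. The library kit keeps the strand, but the strand setting of the counting was not given in the sources used here, so the Cd247 values are uncertain to that extent. Another 206 exon bases of Cd247 are shared on the same strand with Gm16565, which was not listed.

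The 3 CD3 genes lie side by side on chromosome 9. Cd3g (44969572 to 44980431, minus strand) and Cd3d (44981786 to 44987339, plus strand) start back to back with 1354 bases between them, and Cd3e follows 11400 bases after Cd3d. Their promoter sequences are shown because these 3 neighbours were lower together. Each line gives the 250 bases before the RefSeq start site on GRCm38.p6, written 5′ to 3′ on the strand of the gene, with capitals for matches on either strand to 1 of 5 motifs of factors active in T cells. The motifs were RUNX (TGTGGT), then ETS (AGGAAG), then TCF/LEF (CTTTGA), then NFAT (TGGAAA) and, for GATA factors, the letters AGATAA. The ETS and NFAT motifs both hold GGAA, and no capitals printed here overlap.
Cd3g, chr9:44980432-44980681, minus strand: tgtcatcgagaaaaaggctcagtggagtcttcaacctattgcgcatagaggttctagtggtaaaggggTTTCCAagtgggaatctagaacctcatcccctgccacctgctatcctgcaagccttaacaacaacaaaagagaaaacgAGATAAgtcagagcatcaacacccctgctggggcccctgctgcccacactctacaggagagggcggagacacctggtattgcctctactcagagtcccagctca
Cd3d, chr9:44981536-44981785, plus strand: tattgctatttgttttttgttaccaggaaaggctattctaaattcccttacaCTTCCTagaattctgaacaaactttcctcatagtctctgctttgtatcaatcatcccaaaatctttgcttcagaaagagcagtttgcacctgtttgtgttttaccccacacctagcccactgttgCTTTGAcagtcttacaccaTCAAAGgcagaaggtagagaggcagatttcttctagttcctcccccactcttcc
Cd3e, chr9:45009612-45009861, minus strand: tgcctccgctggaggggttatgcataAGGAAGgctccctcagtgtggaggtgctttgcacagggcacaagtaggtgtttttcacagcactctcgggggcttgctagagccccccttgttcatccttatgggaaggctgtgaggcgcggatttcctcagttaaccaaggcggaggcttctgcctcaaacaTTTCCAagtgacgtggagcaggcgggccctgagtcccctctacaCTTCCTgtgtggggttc
The Cd3g window held a match to NFAT and a match to GATA, the Cd3d window held 1 ETS and 2 TCF/LEF matches, and the Cd3e window held 2 ETS matches and 1 NFAT match. A window was at hand for 21 of the 32 genes. The ETS motif was present in 47.6% of these 21 windows, 29.2% of all 27025 RefSeq windows and 28.6% of the 9953 windows of genes compared. For NFAT the shares were 23.8%, 18.7% and 15.3%, for TCF/LEF 19.0%, 14.1% and 10.9%, for RUNX 9.52%, 14.2% and 10.97%, and for GATA 4.76%, 10.3% and 6.18%. These matches describe the letters of the windows and not binding.

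Of the co-receptors, Cd4 had the most negative change of all 27 T cell genes compared on the log2(FPKM + 1) scale. CD4 binds MHC class II and marks helper and regulatory T cells. Cd4 (chromosome 6, 124864692 to 124888221, minus strand) was at 11.3 in WT against 3.41 in Postn-DTR, a change of -1.48 and a ratio of 0.302 (0.260 to 0.350). Its interval lay wholly below those of Cd3d, Cd3e and Cd3g, so Cd4 was lower by more than these 3 chains beyond counting error. It overlapped that of Cd247 (0.341 to 0.554). CD8, which binds MHC class I and marks cytotoxic T cells, is a dimer of alpha and beta chains or of alpha chains alone. Cd8a (chromosome 6, 71373427 to 71379173, plus strand) had 2.81 and 0.897, a ratio of 0.320 (0.235 to 0.431). Cd8b1, whose gene ends 35932 bases before Cd8a, had 4.06 in WT against 2.53 in Postn-DTR, a ratio of 0.622 (0.466 to 0.838).

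The intervals of Cd8a and Cd8b1 did not overlap, and the ratio of Cd8b1 to Cd8a was 1.45 in WT against 2.82 in Postn-DTR. The ratio of Cd4 to Cd8a was 4.03 and 3.81. Some conventional dendritic cells carry CD8 alpha without the beta chain. Dendritic markers moved alongside: 4 of 5 were at least 2-fold lower, among them Itgax at 11.2 and 4.06, with a summed FPKM of 34.8 in WT against 14.1 in Postn-DTR and none at 0. Xcr1, a receptor of the CD8 alpha+ type of dendritic cell named here after its values were seen, had 2.77 and 0.517. The part of dendritic cells in the Cd8a value, and of cells other than T cells in the Cd4 value, was not tested.

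Proximal signalling genes were lower in Postn-DTR without exception, with 7 of 7 below WT and a median change of -0.93 over the 4 whose mean FPKM reached 1. Lck, the kinase that starts receptor signalling, had an FPKM of 20.3 in WT against 8.37 in Postn-DTR, a ratio of 0.413 (0.365 to 0.466). Zap70, the kinase that docks on the phosphorylated chains, had 8.88 and 3.85, a ratio of 0.434 (0.364 to 0.517). Lat, the membrane scaffold downstream of it, had 19.5 and 10.6, a ratio of 0.542 (0.464 to 0.630). Lck and Zap70 kept their proportion, with Zap70 at 0.438 times Lck in WT and 0.460 times in Postn-DTR, whereas Lat differed less on the fold scale and its interval only just overlapped that of Lck.

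Skap1, an adaptor that links the receptor to integrin adhesion, had 4.75 and 2.52, a ratio of 0.531 (0.394 to 0.706). The remaining 3 genes of the group were near or under an FPKM of 1 and are given by ratio, since the added 1 compresses their change. Trat1, an adaptor that associates with the receptor complex, had 0.712 and 0.258, a ratio of 0.363 (0.228 to 0.572). Ubash3a, a negative regulator of receptor signalling, had 1.26 and 0.724, a ratio of 0.573 (0.457 to 0.715). Themis, which is needed for thymic selection, was the lowest of all 32 genes in both libraries, at 0.466 in WT against 0.102 in Postn-DTR. Its ratio of 0.219 (0.106 to 0.415) was the smallest of the 32 and rested on 53 and 12 estimated reads. A pseudogene on the opposite strand, 4930519F09Rik, shares 153 exon bases with Themis and was listed at 0.639 and 0.216.

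Among the receptors of adhesion and costimulation, 7 of 7 were lower in Postn-DTR, but by unequal amounts. Cd5 and Cd6, neighbouring genes 50338 bases apart on chromosome 19 that encode related scavenger-type receptors tuning the T cell signal, had FPKM of 7.65 and 4.25 in WT. In Postn-DTR they were at 2.42 and 1.44, with ratios of 0.316 (0.252 to 0.393) and 0.340 (0.265 to 0.433). Cd27, a TNF receptor family member of naive and memory T cells, had 5.53 and 1.69, a ratio of 0.306 (0.159 to 0.529). Cd40lg, the ligand by which helper T cells engage CD40 on B cells, had 1.23 and 0.317, a ratio of 0.258 on 30 and 8 estimated reads (0.102 to 0.576). These 4 genes were all at or under 0.34 times the WT level, lower than the 3 CD3 genes, although the interval of each overlapped that of Cd3e.

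Cd2 and Thy1, the most abundant of the group, differed least. Cd2, an adhesion receptor for CD48, had an FPKM of 35.8 in WT against 26.03 in Postn-DTR, a ratio of 0.727 (0.653 to 0.808). Thy1 (chromosome 9, 44043384 to 44048579, plus strand) had 55.4 and 36.2, a ratio of 0.654 (0.609 to 0.700). The interval of each lay above those of Cd3d and Cd3e. Neither gene is restricted to T cells, since Cd2 is also used by NK and B cells and Thy1 by fibroblasts. Of 5 fibroblast markers 1, Dpt, was at least 2-fold lower, at 236.9 and 67.3, and 2 were above their WT level, with a summed FPKM of 756 in WT against 484 in Postn-DTR. Their part in the Thy1 value was not tested. Cd28, the main costimulatory receptor, had 2.33 and 1.14, a ratio of 0.490 (0.386 to 0.614), within the range of the CD3 genes.

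**Figure D2:**
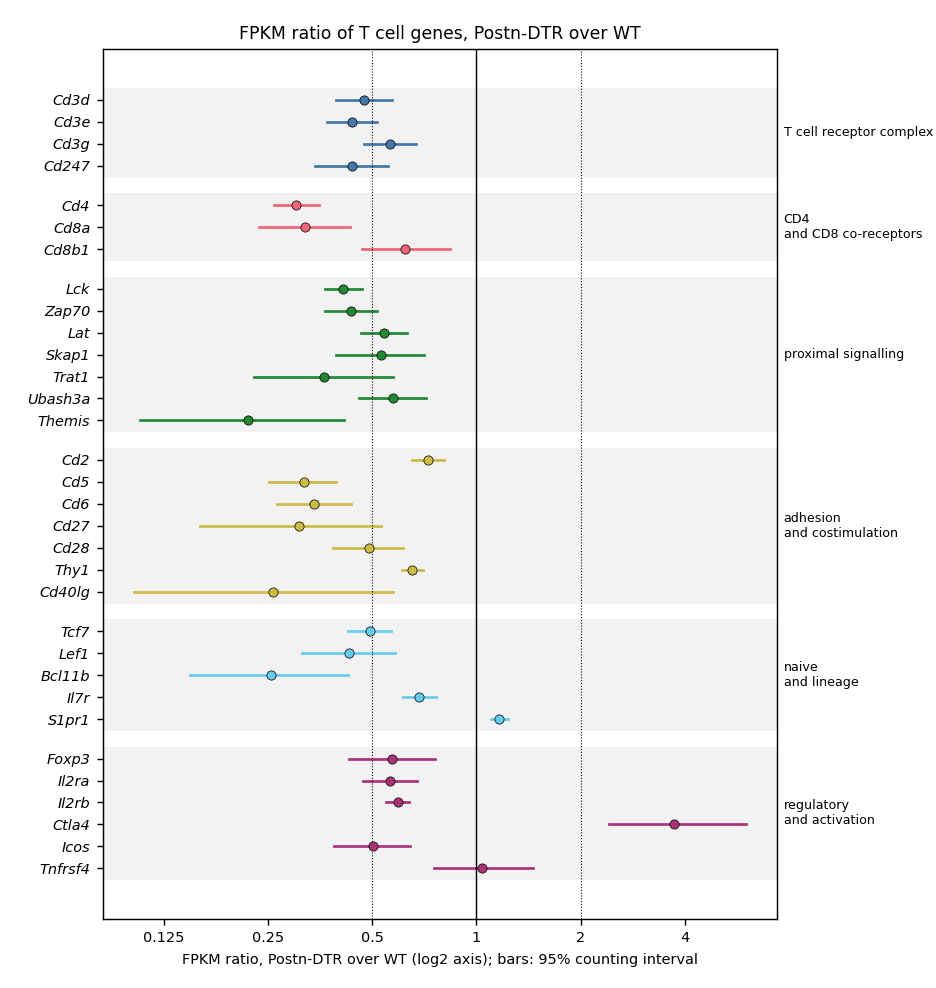
FPKM ratio of Postn-DTR over WT for the 32 T cell genes on a log2 axis, coloured by group, with 95% exact binomial intervals of the estimated reads as bars (counting error only). The solid line is a ratio of 1 and the dotted lines are 2-fold differences. The bars of 29 genes lie below 1, those of S1pr1 and Ctla4 above it, and that of Tnfrsf4 across it.

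The naive and lineage genes were divided. Tcf7 and Lef1 encode related HMG-box factors that are high in naive T cells, and Bcl11b encodes the factor that commits progenitors to the T lineage. Tcf7 had an FPKM of 16.2 in WT against 7.99 in Postn-DTR, a ratio of 0.492 (0.426 to 0.566). Lef1 had 2.91 and 1.24, a ratio of 0.427 (0.314 to 0.581). Bcl11b had 1.39 and 0.355, a ratio of 0.255 (0.149 to 0.427) on 75 and 20 estimated reads. All 3 factors were thus at or under 0.5 times WT. Some exon bases of Lef1 (1208) are shared with an antisense transcript that was not listed.

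Il7r, the IL-7 receptor chain that maintains naive and memory T cells, differed less, at 10.1 and 6.92, a ratio of 0.685 (0.613 to 0.764). Its interval lay above those of Tcf7 and Lef1. Innate lymphoid cells also carry this receptor: of the 6 markers of group 2 innate lymphoid cells (ILC2) 3 were compared, all 3 of which were above WT but none by 2-fold. Their summed FPKM over the 6 was 8.02 in WT against 10.2 in Postn-DTR, with Rora at 3.03 and 3.43, Il1rl1 at 2.15 and 3.57, and Il13 at 0 in Postn-DTR. The part of these cells in the Il7r value was not tested.

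S1pr1, the sphingosine 1-phosphate receptor by which lymphocytes leave tissue towards blood and lymph, went the other way. S1pr1 (chromosome 3, 115710433 to 115715072, minus strand) was at 36.7 in WT against 42.8 in Postn-DTR, a ratio of 1.17 (1.10 to 1.23). This small difference depended on the scaling: at equal FPKM totals without the acinar genes, the change was -0.12 instead of 0.22, while the median of all genes moved by -0.30 to -0.28. In each scaling S1pr1 stood above the other 4 genes of its group. Endothelial cells are a major source of S1pr1, and of 5 blood endothelial markers none differed by 2-fold and 4 were below WT, with a summed FPKM of 251 and 229 and none at 0. Pecam1 was at 109.0 and 109.5, and Egfl7 at 64.6 and 55.6. Which cells carried the S1pr1 transcript was not tested.

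The regulatory and activation genes had the smallest median change of the 6 groups, -0.53, and held the only T cell gene that was at least 2-fold higher. Foxp3, the factor that defines regulatory T cells (chromosome X, 7573644 to 7595245, plus strand), was at 1.70 in WT against 0.967 in Postn-DTR, a ratio of 0.569 (0.429 to 0.758). Its ratio was nearer to 1 than that of Cd4, with intervals that did not overlap, and the ratio of Foxp3 to Cd4 was 0.150 in WT against 0.283 in Postn-DTR. Exons of Foxp3 share 590 bases with Ccdc22 on the opposite strand, listed at 14.1 and 14.7, and 266 bases with Ppp1r3f, listed at 1.02 and 1.70. Flicr, which was not listed, shares 853 bases with Foxp3 on the same strand. Reads of Ccdc22 and Ppp1r3f could enter the Foxp3 value if strand was not used in the counting. Reads of Flicr could enter it whether or not strand was used, so this ratio is uncertain.

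The chains of the IL-2 receptor were lower by similar factors. Il2ra, the high-affinity chain of regulatory and activated T cells, had 3.43 and 1.93, a ratio of 0.564 (0.470 to 0.675). Il2rb, the signalling chain shared with the IL-15 receptor, had 19.0 and 11.3, a ratio of 0.593 (0.549 to 0.640). NK cells are rich in Il2rb, and all 7 NK markers were below WT, with a median change of -0.57. None was lower by 2-fold on the log2(FPKM + 1) scale, and 1, Klre1, had at most 0.5 times the WT FPKM. Klre1, named here after its values were seen, had 2.53 and 1.11, a ratio of 0.437. The summed FPKM of the 7 was 32.3 and 22.2, with none at 0. Gzma was at 10.9 and 8.78 and Klrk1 at 5.60 and 3.44. The part of NK cells in the Il2rb value was not tested.

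Ctla4 was the exception. The gene (ENSMUSG00000026011, chromosome 1, 60887000 to 60915832, plus strand) encodes the inhibitory receptor CTLA-4 of regulatory and activated T cells. Its FPKM was 2.63 in WT against 9.78 in Postn-DTR, a change of 1.57 and a ratio of 3.72 (2.42 to 6.02). This interval rests on 26 and 101 estimated reads for the shortest mRNA of 614 bases. Of all genes compared, 98.5% had a lower change. Ctla4 lies between the genes of 2 related receptors, 113640 bases from the end of Cd28 and 62094 bases before Icos, and both were lower. Icos, the inducible costimulator of activated and follicular helper T cells, had 2.66 and 1.33, a ratio of 0.501 (0.386 to 0.641), almost that of Cd28. Ctla4 was at 1.13 times Cd28 in WT against 8.58 times in Postn-DTR, and at 1.55 and 10.1 times Foxp3. Which cells carried the Ctla4 transcript was not tested.

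The Ctla4 promoter is shown as that of the only member at least 2-fold higher, in the same form as the CD3 promoters. The RefSeq start used lies inside the longer GENCODE gene model.
Ctla4, chr1:60908775-60909024, plus strand: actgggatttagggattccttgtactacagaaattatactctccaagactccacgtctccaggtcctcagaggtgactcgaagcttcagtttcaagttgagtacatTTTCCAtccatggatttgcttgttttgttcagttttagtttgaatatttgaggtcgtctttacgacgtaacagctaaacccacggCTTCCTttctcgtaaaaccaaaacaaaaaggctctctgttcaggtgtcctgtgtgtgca
It held a match to NFAT and a match to ETS, which were also found at Cd3e, a gene that was lower in Postn-DTR.

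Tnfrsf4, which encodes the costimulatory receptor OX40, was level, at an FPKM of 3.78 in WT against 3.92 in Postn-DTR, a ratio of 1.04 (0.752 to 1.45). Its change of 0.04 turned to -0.02 with both libraries set to the same 75th percentile and to -0.23 at equal totals without the acinar genes, so it has no stable direction. With a stricter minimum of a mean FPKM of 5, only Il2rb and Ctla4 of this group remained, and the group median was 0.43 instead of -0.53.

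To ask which genes departed from the common difference, each was set against the mean FPKM of Cd3d, Cd3e and Cd3g in its own library, 14.9 in WT against 7.45 in Postn-DTR. This CD3 mean was 26.9% of Ptprc in WT and 21.0% in Postn-DTR, so the CD3 genes were lower relative to CD45 as well. Of the 29 genes outside this mean, 19 kept their proportion to it within 1.5-fold, 15 had a lower and 14 a higher share. Tcf7 was at 109% of the CD3 mean in WT against 107% in Postn-DTR, Icos at 17.8% and 17.9%, and Cd28 at 15.6% and 15.3%. These genes of different roles kept step with the CD3 chains.

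Other genes had a lower proportion to the CD3 mean in Postn-DTR. Cd4, whose interval lay wholly below those of the 3 CD3 genes, was at 75.7% of the CD3 mean in WT against 45.8% in Postn-DTR, Cd8a at 18.8% and 12.05%, Cd5 at 51.2% and 32.5%, and Cd27 at 37.0% and 22.7%. Bcl11b was at 9.31% and 4.76%, Cd40lg at 8.22% and 4.25%, and Themis at 3.12% and 1.37%, the 3 lowest proportions retained. The ratio intervals of these genes other than Cd4 overlapped that of Cd3e. In the opposite direction, Ctla4 was at 17.6% and 131%, a 7.47-fold difference, S1pr1 at 246% and 575% (2.34-fold) and Tnfrsf4 at 25.3% and 52.6% (2.08-fold). A gene at equal FPKM in both libraries has a higher share in Postn-DTR, where the CD3 mean was lower. Cd2 (240% and 350%) and Thy1 (371% and 487%) had a higher share within 1.5-fold. Foxp3, at 11.4% and 12.98%, kept close to its proportion, though its value is uncertain because its exons overlap other genes. These proportions do not depend on the scaling of either library, and they carry no test.

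**Figure D3:**
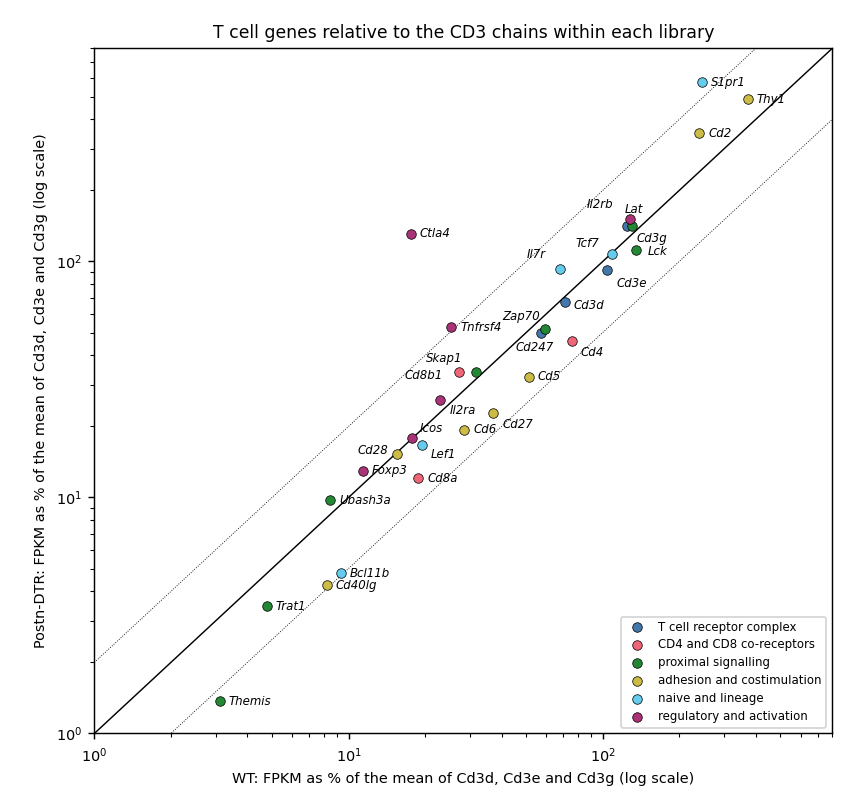
Each T cell gene's FPKM as a percentage of the mean FPKM of Cd3d, Cd3e and Cd3g, in WT (horizontal) and Postn-DTR (vertical), both on log axes and coloured by group. The solid line is equal proportion and the dotted lines are 2-fold departures. Ctla4 lies far above the lines, at 17.6% and 131%, with S1pr1 and Tnfrsf4 just past the upper dotted line and Themis below the lower one.

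Other genes of the same pathways were taken from lists, and their median changes lay closer to 0 than the -0.77 of the members. Of 24 further genes of T cell receptor signalling, all compared, none was at least 2-fold lower or higher on the log2(FPKM + 1) scale, 4 had at most 0.5 times the WT FPKM, 18 were below WT and the median change was -0.50. The 2 most abundant were Csk, the kinase that restrains Lck, at an FPKM of 64.1 in WT against 51.8 in Postn-DTR, and Ptprcap, a partner of CD45, at 65.8 and 40.8.

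Of 9 further naive and recirculation genes, 3 were at least 2-fold lower and 1 higher, with a median change of -0.32. Ccr7, the homing receptor for lymphoid tissue that mature dendritic cells share, had an FPKM of 8.45 in WT against 3.18 in Postn-DTR. Dapl1 had 2.43 and 0.335, and Sidt1 had 2.05 and 0.523. Klf2, the factor that drives S1pr1 in T cells and is abundant in endothelium, had 96.2 and 246.8, a change of 1.35. As with S1pr1, the cells that carried the Klf2 transcript were not tested.

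The 8 further regulatory T cell genes, 5 of them compared, were mixed, with a median of -0.30. Izumo1r, the folate receptor FR4 of regulatory T cells, was lower at 5.60 and 1.77. Il10, an anti-inflammatory cytokine made by regulatory T cells, B cells and macrophages, was higher at 1.20 and 7.63, a change of 1.97. Set against the CD3 mean, Izumo1r was at 37.5% in WT against 23.8% in Postn-DTR and Il10 at 8.07% and 102%. Lrrc32, which encodes the TGF-beta docking receptor GARP and was named after its values were seen, had 9.72 and 14.2, a ratio of 1.46 (1.34 to 1.597). The list thus held genes on both sides of WT.

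Of 19 effector and memory genes, 14 were compared and 2 were at least 2-fold lower, with a median of -0.09. Cxcr3, a chemokine receptor of type 1 effector cells, had 12.8 and 5.43, and Tbx21, the factor that specifies them, 3.62 and 1.22. Il17a was at 0 in both libraries. The list held 4 other inhibitory receptors of activated T cells, all named after their values were seen. Tigit had 4.17 and 5.07, Lag3 6.91 and 7.30, and Pdcd1 2.73 and 2.50, whereas Havcr2, which encodes TIM-3, had 2.59 and 0.987, a ratio of 0.382 (0.278 to 0.518). The ratio intervals of Tigit (0.888 to 1.70), Lag3 (0.898 to 1.24) and Pdcd1 (0.692 to 1.21) all held 1. Set against the CD3 mean, which was itself lower in Postn-DTR, Tigit was 2.44-fold, Lag3 2.12-fold and Pdcd1 1.83-fold higher. Ctla4 was 7.47-fold higher on this measure, and Havcr2 was 0.766 times its WT proportion. Which cells carried these transcripts was not tested.

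**Figure D4:**
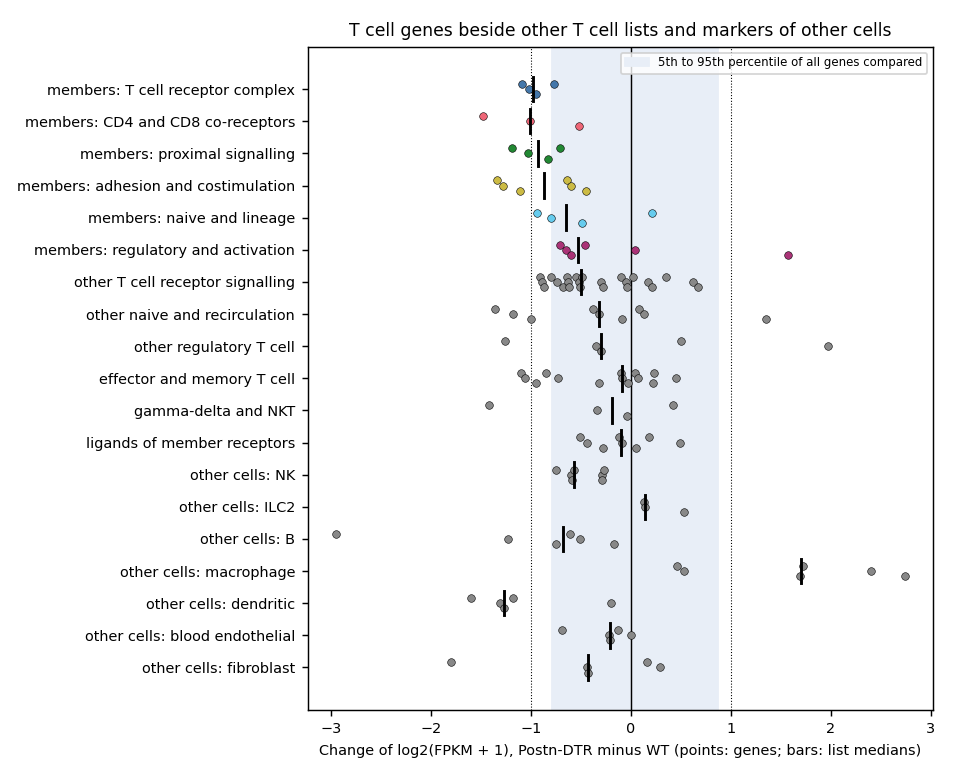
Difference in log2(FPKM + 1) between Postn-DTR and WT (above 0: higher in Postn-DTR) for the 6 groups of T cell genes (coloured), further T cell lists and markers of other cells (grey), for genes whose mean FPKM reached 1. Points are genes, bars are list medians, dotted lines are 2-fold differences and the shaded band spans the 5th to 95th percentile of all genes compared (-0.79 to 0.87). Medians of the T cell groups run from -1.005 for the co-receptors to -0.53 for the regulatory genes, between dendritic markers at -1.27 and macrophage markers at 1.70.

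Markers of other leukocytes differed between the libraries as well. All 6 B cell markers were below WT, 2 by at least 2-fold, with a median change of -0.68, a summed FPKM of 481 in WT against 332 in Postn-DTR and none at 0. Ms4a1, which encodes CD20, had 56.8 and 23.6, and Fcer2a, which encodes CD23, had 30.5 and 3.10. All 6 macrophage markers were above WT, 4 by at least 2-fold, with a median of 1.70, a summed FPKM of 2852 and 4772 and none at 0. Cd68 had 113.8 and 369.4, and Itgam 46.8 and 251.9. The part of these shifts in the T cell values was not tested.

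Markers of developing T cells were near absent. Of 5 thymocyte genes, Rag1, Rag2, Dntt and Ptcra were under an FPKM of 0.2 in both libraries, with Rag2 and Ptcra at 0 in WT. Only Cd1d1, which B cells and macrophages also use, was above 1, at 52.5 and 24.4. The summed FPKM of the 5 was 52.7 and 24.9.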

How the data were processed

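RNA-seq was analysed for 2 libraries of mouse whole omentum, 1 per genotype, grouped by the genotype label. Per the labels, a miRNeasy kit gave the RNA and a TruSeq stranded mRNA kit the libraries. The authors deposited FPKM, 1 value per gene symbol and library. The submitters' processing notes name TopHat2 2.1.1, Bowtie2 2.2.8, SAMtools 0.1.18 and Cuffdiff 2.2.1 and the build mm10, with no role or setting given.

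The members and lists were chosen with earlier results of these data known. All 32 members are named. From each other list the genes that reach 2-fold are named, at most 4 by highest mean FPKM (2 for markers of other cells), or else the 2 with the highest mean FPKM. Postn, Aldh1a2 and Ptprc are also named, as are genes not detected in a library, the thymocyte genes and genes whose exons overlap a member. Other genes named outside this rule are said to be named after their values were seen.

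Changes were computed as log2(FPKM + 1), and genes whose mean FPKM reached 1 were compared, with Python 3.11.15, pandas 2.3.3 and scipy 1.17.1. Depth was estimated from 723 genes listed above 0 but under 0.1 FPKM in each library, 174 of which lay at a Postn-DTR to WT ratio of 0.967, so the Postn-DTR library was 1.03 times as deep. Of 59 genes with 1 transcript at this ratio, 50 came out as whole reads (within 0.05) at 23100000 fragments for WT, with transcript lengths reduced by 180 bases. These genes also gave the estimate, so this is no independent check. Reads per gene used the shortest RefSeq mRNA, which makes the intervals no narrower than a longer transcript would, and intervals cover counting error only. The procedure was tested on simulated data. Gene positions are from GENCODE M21 (GRCm38) and promoter sequences from RefSeq (GRCm38.p6), of which the first listed window per gene was searched. Alternatives were other pseudocounts, minimums, thresholds and scalings. The FPKM ratio without pseudocount was added after seeing the data.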

Additional observations from a re-analysis of the deposited data

How the results depend on the processing

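With 1 library per genotype no result has a replicate check. Of the 32 T cell genes, 29 were below 0 and Ctla4 was above 0 as reported and under all 8 alternatives that apply to a gene. S1pr1 was -0.12 and Tnfrsf4 -0.23 with the acinar genes removed and equal totals, and Tnfrsf4 was -0.021 at the same 75th percentile. At equal totals 14 genes were at least 2-fold lower, beside 5.67% of all genes, and the proximal signalling median was -1.21. With a pseudocount of 0.1 the median was -1.54 for the co-receptors and -1.23 for adhesion and costimulation, and without any pseudocount -1.65 and -1.29. With a pseudocount of 5, 0 genes were at least 2-fold lower and 0 higher (1.28% and 2.19% of all genes), and the medians were -0.64 for the receptor complex, -0.40 for the co-receptors, -0.65 for proximal signalling and -0.34 for naive and lineage genes. By construction, a larger pseudocount shrinks changes of low FPKM. With a mean FPKM of at least 5, 16 genes were compared and 14 were below 0, the co-receptor median was -1.48 (Cd4 alone), and the regulatory median was 0.43 on Il2rb and Ctla4. On the log2(FPKM + 1) scale, 20 genes were lower at a 1.5-fold threshold (8.84% of all genes). At 3-fold on that scale 0 were lower and 0 higher (1.17% and 1.52%). Without the added 1, Cd4 (3.31-fold), Cd27 (3.27-fold), Cd5 (3.16-fold) and Cd8a (3.13-fold) were past 3-fold lower among the genes compared. Ctla4 was past 3-fold higher, at a ratio of 3.72. No paired analysis was possible because the genotypes share fewer than 2 replicate numbers. Few reads limit some genes: Cd40lg, Themis, Cd27 and Bcl11b rested on 8, 12, 16 and 20 estimated reads in Postn-DTR. The counts of Cd27 and Bcl11b are for their shortest mRNAs, of 588 and 2522 bases. Their longest mRNAs, of 1559 and 8111 bases, would give more reads. The same holds for Ctla4, with a shortest mRNA of 614 bases and a longest of 1933.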

Other observations

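Ligands of the receptors described above differed by less than the members in median change. Of 12 ligand genes 11 were listed and 8 compared, none differed by 2-fold and 5 were below WT, with a median change of -0.10. Cd48, the ligand of CD2, had an FPKM of 54.9 in WT against 50.6 in Postn-DTR. Icosl, the ligand of ICOS, had 23.5 and 16.2, a ratio of 0.689 (0.635 to 0.747). Il7, the ligand of the Il7r product and named after its values were seen, had 1.93 and 3.12, a ratio of 1.62 (1.21 to 2.22). Cd70, the ligand of CD27, was at 0 in both libraries. Cd80 and Cd86, the ligands that CD28 and CTLA-4 share, had 3.12 and 3.68 and 10.96 and 8.86, and were named after their values were seen.

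Of 10 genes of gamma-delta and NKT cells, 5 were listed and 4 compared, with a median change of -0.19. Cd163l1, a scavenger receptor of gamma-delta T cells, was the only one at least 2-fold lower, at 10.2 in WT against 3.20 in Postn-DTR, a change of -1.42. The 5 adipocyte markers had a median of -0.15, with none past 2-fold in either direction, and Fabp4 was at 4879 and 6519 and Adipoq at 955 and 636.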
